A study of Mus musculus with 8 samples.

Results

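The genes described here are 45 regulators of chromatin and DNA methylation, measured in whole fetal mouse brain after prenatal stress. They were taken by name from 54752 listed genes, with no threshold on their values, but the list was drawn up with earlier results of these data known. They comprise 7 genes of Polycomb repressive complex 2 (PRC2), 10 of Polycomb repressive complex 1 (PRC1), 20 of the BAF and PBAF chromatin remodelling complexes, and 8 that write, erase or read DNA methylation. All 45 were found under a single identifier each, and all 45 passed the filter on low counts.

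The study asked how stress of the pregnant dam changes gene expression in the fetal brain. All 8 embryos were wild type C57BL/6 mice (C57BL/6Slac in the study's methods) collected at E15.5, so only the treatment of the dam set the groups apart by label. Dams of the stress group underwent chronic unpredictable mild stress (CUMS), a changing daily schedule of mild stressors such as tube restraint, predator odour and wet bedding, until the day before collection. Dams of the control group stayed in their home cages. RNA of each whole brain was sequenced as its own library. The control brains were from females F36 and F37 and males M30 and M31, and the stressed brains from females F34 and F35 and males M28 and M29. The study itself used more brains, from more litters, than these 8. In its sample list each group of these 8 brains is a single litter. Here the effects of litter and treatment therefore cannot be told apart, and the p-values measure the spread between litter mates. Library totals were between 25320109 and 29105710 counts, and no brain stood apart in its scaling, with normalization factors between 0.9956 and 1.002.

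PRC2 places methyl groups on lysine K27 of histone H3, a mark of silenced developmental genes, and PRC1 binds that mark and attaches ubiquitin to histone H2A. BAF complexes use ATP to move nucleosomes and oppose Polycomb at many genes. In the developing brain, dividing progenitors carry a BAF complex with Actl6a, Dpf2 and Ss18, and these subunits are exchanged for Actl6b, Dpf1 and Dpf3 (among others) when neurons leave the cell cycle. DNA methyltransferases place or copy methyl groups on cytosine, Tet enzymes oxidise them, and Mbd proteins include readers of methylated DNA.

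Promoters are shown for 5 members: Ezh2, Suz12 and Actl6a (higher in stressed brains), Ezh1 (lower) and Actl6b, the neuronal counterpart of Actl6a (not called). Each is the 250 bases before a RefSeq transcript start in GRCm38.p6, the assembly called mm10 in the counting, written in the direction of the gene. Capitals mark letters of 3 kinds of motif known from cell cycle genes, found on either strand: the CCAAT box (CCAAT, or ATTGG on the other strand), the CHR element (TTTGAA, or TTCAAA), and E2F motifs (TTCCCGC or TTGGCGC or TTCGCGC, and their reverse complements). A match is a description of these letters and not evidence that a factor binds.
Ezh2, chr6:47595031-47595280, minus strand: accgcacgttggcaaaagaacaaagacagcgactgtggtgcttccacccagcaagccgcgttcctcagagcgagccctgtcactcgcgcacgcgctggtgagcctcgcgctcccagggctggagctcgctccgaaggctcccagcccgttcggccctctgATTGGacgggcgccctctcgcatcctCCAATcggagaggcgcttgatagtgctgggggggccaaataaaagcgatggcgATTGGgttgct
Suz12, chr11:79992856-79993105, plus strand: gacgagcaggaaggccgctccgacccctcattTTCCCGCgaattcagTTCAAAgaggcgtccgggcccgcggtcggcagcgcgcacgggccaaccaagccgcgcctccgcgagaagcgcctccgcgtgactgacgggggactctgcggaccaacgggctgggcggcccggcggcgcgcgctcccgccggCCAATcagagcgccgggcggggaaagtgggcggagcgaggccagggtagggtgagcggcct
Actl6a, chr3:32708296-32708545, plus strand: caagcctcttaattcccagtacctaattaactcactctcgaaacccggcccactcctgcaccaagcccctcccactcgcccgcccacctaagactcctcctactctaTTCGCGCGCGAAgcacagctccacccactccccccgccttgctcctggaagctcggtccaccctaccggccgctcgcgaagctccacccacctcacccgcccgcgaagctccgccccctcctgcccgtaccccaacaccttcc
Ezh1, chr11:101226464-101226713, minus strand: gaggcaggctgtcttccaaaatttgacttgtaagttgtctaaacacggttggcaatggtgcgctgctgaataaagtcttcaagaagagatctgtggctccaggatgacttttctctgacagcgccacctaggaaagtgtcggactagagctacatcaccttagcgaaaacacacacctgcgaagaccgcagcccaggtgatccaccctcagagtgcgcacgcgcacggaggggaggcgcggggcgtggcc
Actl6b, chr5:137553296-137553545, plus strand: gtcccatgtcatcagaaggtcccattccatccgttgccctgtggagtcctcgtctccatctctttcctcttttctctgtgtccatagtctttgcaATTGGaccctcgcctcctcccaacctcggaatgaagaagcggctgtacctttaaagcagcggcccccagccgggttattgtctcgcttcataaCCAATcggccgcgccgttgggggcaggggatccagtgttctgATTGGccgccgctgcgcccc
The Ezh2 window held 3 CCAAT boxes, with their first bases 90, 64 and 11 bases before the start, and an E2F motif began 5 bases after the start, outside the printed letters. In the Suz12 window an E2F motif, a CHR element and a CCAAT box began 218, 203 and 61 bases before the start. The Actl6a window held 2 overlapping E2F motifs, one on each strand, 143 and 138 bases before the start. In Actl6b there were 3 CCAAT boxes, 155, 62 and 20 bases before the start, and in Ezh1 none of these motifs occurred. These promoters do not stand for their groups. An E2F motif occurred in 5 of 16 windows of higher members and in 1 of 5 windows of lower members. As counted, Ezh2 spans chr6:47530139-47595341, Suz12 chr11:79993106-80034123, Actl6a chr3:32706298-32726973, Ezh1 chr11:101191115-101226463 and Actl6b chr5:137553517-137569582 in mm10. The printed windows of Ezh2 and Actl6a therefore lie wholly, and that of Actl6b in its last bases, inside the gene as counted, while those of Suz12 and Ezh1 end where the counted gene begins.

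RefSeq promoters of 300 bases (250 before and 50 after the start) were matched for 39 of the 45 members, with 48 windows in all because some genes have several starts. Cbx2, Smarce1, Bcl7a, Arid2, Ss18 and Mbd2 are named only. An E2F motif occurred in 11 of the 48 member windows (22.9%) and in 8.07% of all 32851 promoters. The CCAAT box occurred in 37.5% of the member windows and 37.4% of all promoters, and the CHR element in 12.5% and 17.9%. The member windows were also richer in CpG, with a median of 29.5 CpG and 66% G and C, against 7 CpG and 52.7% over all promoters, and the part of base composition in the E2F share was not tested. Of the 16 windows of members that were higher in stressed brains, 5 held an E2F motif, as did 5 of the 27 windows of members that were not called and 1 of the 5 windows of members that were lower.

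Of the 45 members, 11 were higher in stressed brains and 3 were lower at an adjusted p-value under 0.05 by edgeR's quasi-likelihood test with Benjamini-Hochberg adjustment over 17865 genes. The higher members were Ezh2, Suz12, Jarid2 and Mtf2 of PRC2, Phc1 and Phc2 of PRC1, and Smarcc1, Smarcd1, Arid1a, Pbrm1 and Actl6a of the BAF complexes. The lower members were Ezh1 of PRC2, Cbx6 of PRC1 and the DNA methyltransferase Dnmt3a. Over all genes tested, 6.49% were called higher and 7.27% lower, against 24.4% and 6.67% of the members, so the share of higher members exceeded the background and the share of lower members was close to it. Because the list was made with earlier results known, these shares are a description and are not free of selection. The changes were small, between 0.09 and 0.16 in size on the log2 scale for the 14 called members. The median log2 fold change of the members was 0.05, against 0.00 over all genes tested, and 32 of the 45 were positive. By DESeq2's Wald test 10 members were higher and 3 lower, with 4.19% and 5.1% of all genes called (9.29% in either direction). At an adjusted p under 0.05 in either direction, edgeR called 14 of the 45 members and 13.8% of all genes.

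**Figure D1:**
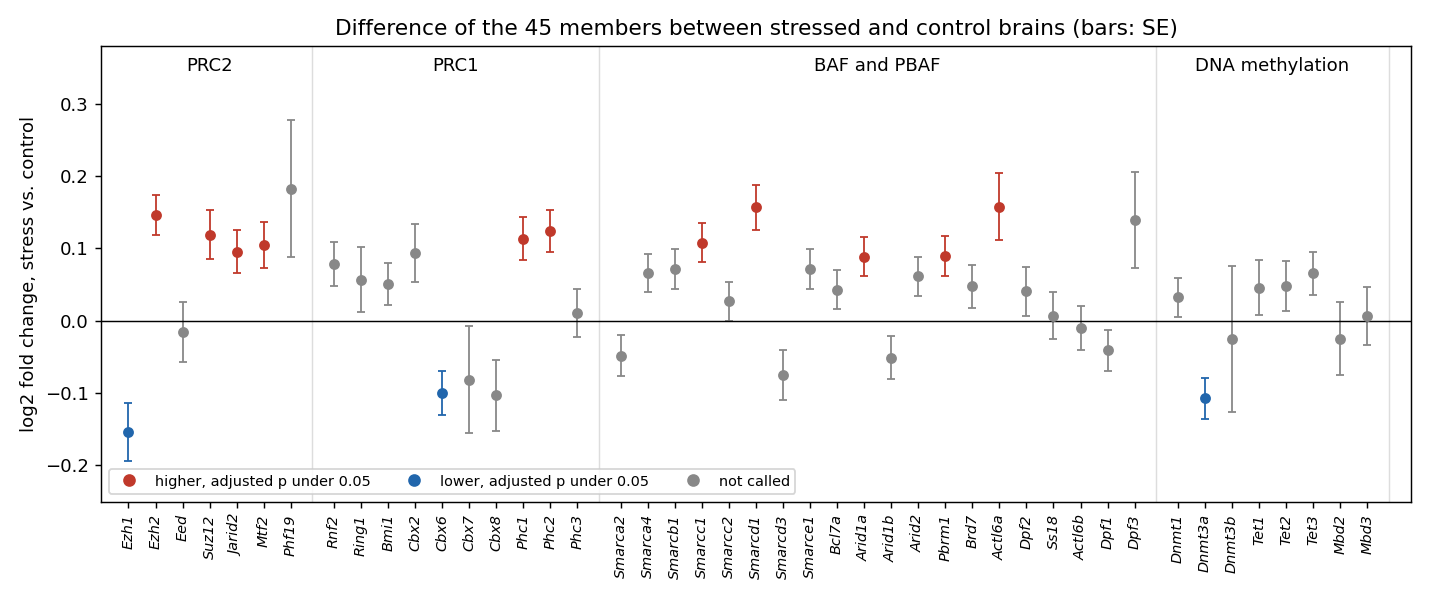
Log2 fold change of each of the 45 members, stress vs. control, by complex (y axis), with bars of 1 SE from the edgeR fit over 8 brains. Red points are the 11 members called higher, blue points the 3 called lower and grey points the 31 not called; 4 of the 7 PRC2 genes are red, and none of the 8 DNA methylation genes is.

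Counts of the families differed. PRC2 had 4 of 7 members higher and 1 lower, PRC1 had 2 of 10 higher and 1 lower, the BAF and PBAF complexes had 5 of 20 higher and 0 lower, and the DNA methylation genes had 0 of 8 higher and 1 lower. By DESeq2 no BAF member was lower and no DNA methylation member was higher either. Over all genes tested edgeR called 6.49% higher and 7.27% lower, so the counts of the DNA methylation members were near the background. Of 9 tested DNA methylation genes outside the member list, given below, 3 were higher and 1 lower. The groups did not overlap, brain by brain, for 12 members with stress higher and 2 with stress lower, against 8.2% and 8.22% of all genes tested. Whether the families differ from each other was not tested.

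Markers of the cell types in the brain moved with treatment too. All 6 listed markers of proliferating cells were higher in stressed brains, with a summed level of 532 to 572 CPM (counts scaled to a library total of 1000000) in control and 598 to 684 CPM in stressed brains. Of the intermediate progenitor markers, 5 of 6 were higher (351 to 382 CPM in control, 390 to 437 CPM in stress), and of the radial glia markers 5 of 10 (1650 to 1755 against 1685 to 1821 CPM). Neuronal markers were lower for 6 of 11, at 8199 to 8452 CPM in control and 7999 to 8349 CPM in stressed brains. Markers of the oligodendrocyte lineage were lower for 2 of 4 (104 to 115 against 91.0 to 97.1 CPM) and of endothelial cells for 3 of 5 (136 to 151 against 120 to 129 CPM). By DESeq2 fewer markers were called for intermediate progenitors (4 higher), radial glia (3 higher), neurons (5 lower) and endothelial cells (2 lower). Of the 10 radial glia markers, 4 had a negative log2 fold change, none of them called. No marker of pericytes (2 listed) or microglia (5 listed, 24.6 to 29.1 CPM in sum) was called. Erythroid markers had 2 higher and 1 lower of 7 (364 to 410 against 370 to 384 CPM in sum). The higher ones were the embryonic globins Hba-x and Hbb-y (log2 fold change 1.09 and 0.84, edgeR adjusted p = 2.21e-05 and 0.00012). They reached at most 4.38 and 6.98 CPM, so the sum hardly shows them. Of 3 choroid plexus markers only Ttr was higher, and it was not called by DESeq2's Wald test (adjusted p = 0.412). Their sum was 1.52 to 8.81 CPM in control and 1.62 to 31.4 CPM in stressed brains. It was highest in stress F34, where Ttr alone was at 29.9 CPM. No listed marker was at 0 in any brain, the neuronal and radial glia markers that define the labelled tissue included. In whole tissue, more cells of a type and more RNA per cell cannot be told apart, and the part of these markers in the members' changes was not tested.

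PRC2 was the family with the largest share of called members. Ezh2, its main methyltransferase in dividing cells, was at 145, 146, 147 and 149 CPM in control F36, F37, M30 and M31 and at 163, 163, 157 and 167 CPM in stress F34, F35, M28 and M29, an order of brains kept for all values below. All 4 stressed brains were above all 4 control brains, and stress M28 was nearest to them. Ezh2 rose by 10.7% (log2 fold change 0.15, SE 0.03, edgeR adjusted p = 0.000899), in females and in males each alone as well (edgeR adjusted p = 0.0203 and 0.0341).

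Ezh1, the alternative methyltransferase that prevails in cells that no longer divide, went the other way. Its level was 39.9, 39.8, 38.4 and 41.7 CPM in the control brains and 36.5, 35.6, 35.3 and 36.3 CPM in the stressed brains. The groups did not overlap, and the stressed brains were tightly grouped. Ezh1 fell by 10.1% (log2 fold change -0.15, SE 0.04, edgeR adjusted p = 0.0104), and the call was lost without control M31, the highest brain (edgeR adjusted p = 0.0546). The log2 ratio of Ezh2 to Ezh1 was 1.88 ± 0.04 in control and 2.17 ± 0.03 in stressed brains (SD, n = 4), a difference of 0.30 that was 0.31 in females and 0.29 in males. This ratio was chosen after the values were seen, so it carries no test.

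Suz12, a core subunit that holds the complex together, was at 95.2, 105, 105 and 109 CPM in control and 109, 114, 113 and 113 CPM in stressed brains. The groups did not overlap, although the highest control brain, M31, and the lowest stressed brain, F34, were almost level. Suz12 rose by 8.61% (log2 fold change 0.12, SE 0.03, edgeR adjusted p = 0.0163), a call lost without control F36, control M30 or stress F35 (edgeR adjusted p = 0.0595 to 0.106). Eed, the subunit that binds the methyl mark, had a log2 fold change of -0.02 (SE 0.04, edgeR adjusted p = 0.858), with a 95% interval of -0.10 to 0.07. Of the 4 core genes, 2 rose, 1 fell and Eed did not pass the test.

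Of the accessory subunits that help PRC2 find its targets, Jarid2 and Mtf2 were called. Jarid2 was at 100.04, 98.5, 99.0 and 101 CPM in control and 104, 110, 104 and 108 CPM in stressed brains. The groups were apart, with a narrower spread in control than in stress. Jarid2 rose by 6.86% (log2 fold change 0.10, SE 0.03, edgeR adjusted p = 0.0321), and the call was lost by DESeq2 (adjusted p = 0.0616) and without control F36, F37 or M30 or stress F35 or M29 (edgeR adjusted p = 0.0607 to 0.108).

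Mtf2 was at 106, 109, 114 and 116 CPM in control and 118, 121, 116 and 123 CPM in stressed brains. Its groups overlapped, since stress M28 was just below control M31. Mtf2 rose by 7.52% (log2 fold change 0.10, SE 0.03, edgeR adjusted p = 0.0251), and the call was lost without control F36, F37 or M30 or stress F34, F35 or M29 (edgeR adjusted p = 0.0566 to 0.104). Phf19, a related accessory subunit, was the least expressed member at 4.18 to 5.57 CPM, with 119 to 151 counts per brain. It had the largest log2 fold change of all members, 0.18, but an SE of 0.09 (edgeR adjusted p = 0.222), so a difference of this size could not be told from 0 at this depth.

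**Figure D2:**
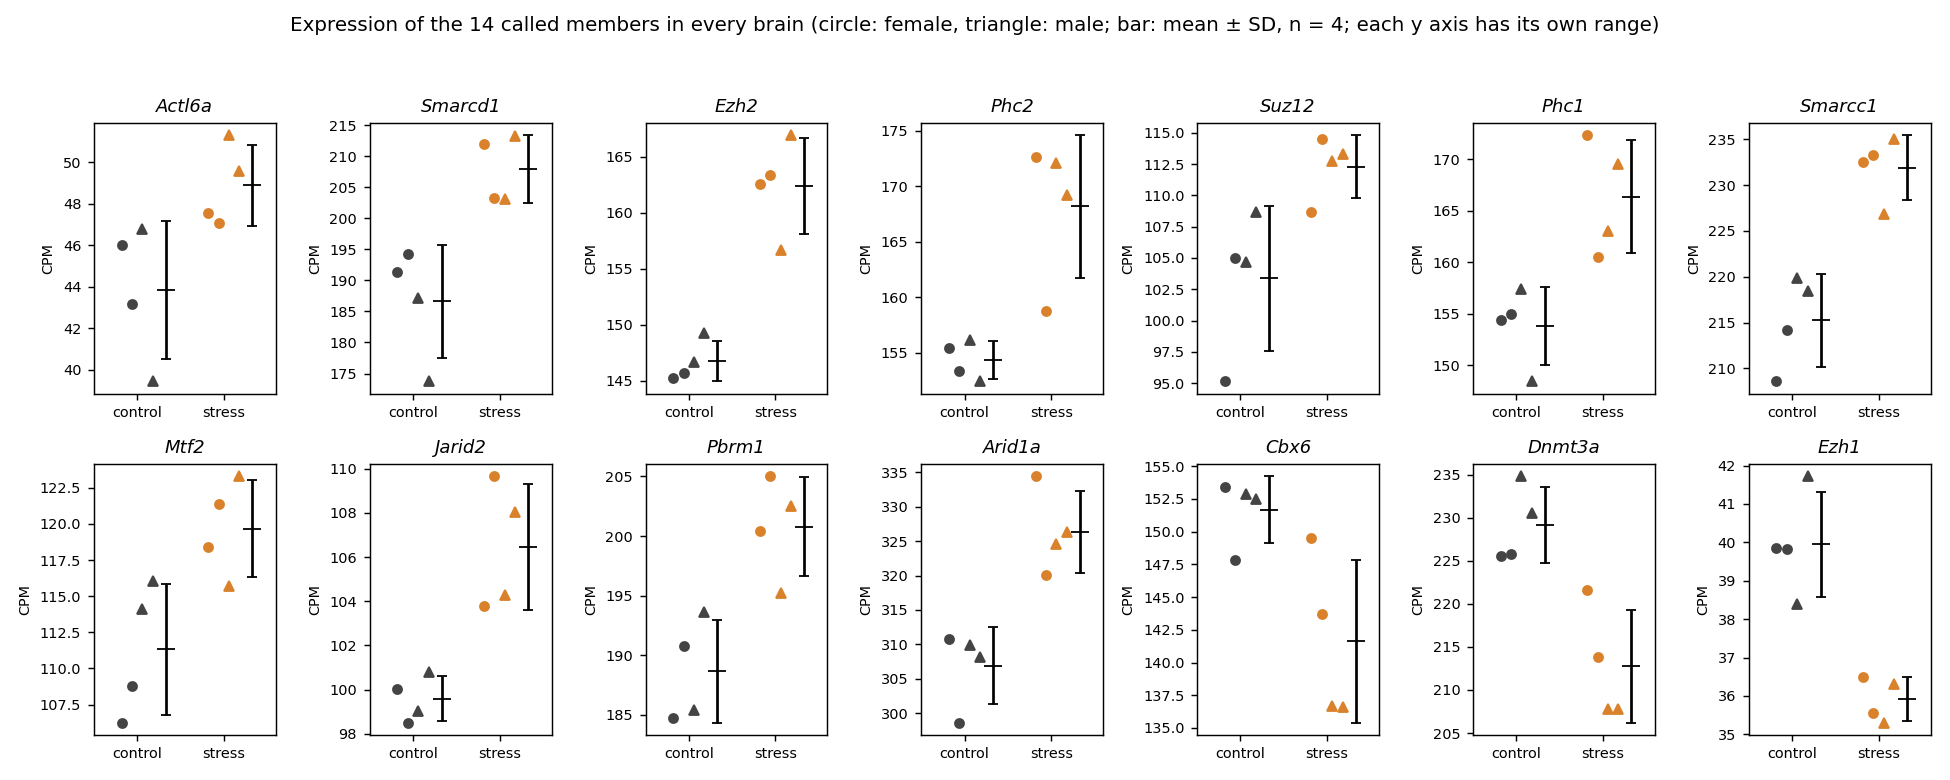
CPM of the 14 called members in every brain (y axis, its own range in each panel), for the 4 control (dark) and 4 stressed brains (orange), females as circles and males as triangles, with a bar for mean ± SD (n = 4). The 11 higher members come first and Cbx6, Dnmt3a and Ezh1, the lower ones, last; only for Mtf2 and Cbx6 do the groups overlap.

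In PRC1, 2 of the 3 Phc genes, whose proteins polymerise and cluster Polycomb sites, were higher. Phc1 was at 154, 155, 157 and 148 CPM in control and 172, 161, 163 and 169 CPM in stressed brains. The lowest stressed brain, F35, was above the highest control brain, M30. Phc1 rose by 8.19% (log2 fold change 0.11, SE 0.03, edgeR adjusted p = 0.0112), and without stress F34 or stress M29 the edgeR adjusted p was 0.0535 and 0.0529, just past the threshold.

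Phc2 was at 155, 153, 156 and 152 CPM in control and 173, 159, 172 and 169 CPM in stressed brains. The control brains were close together, and stress F35 was nearest to them. Phc2 rose (log2 fold change 0.12, SE 0.03, edgeR adjusted p = 0.00531). Phc3, the third paralog, had a log2 fold change of 0.01 (SE 0.03, edgeR adjusted p = 0.882, 95% interval -0.06 to 0.08).

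Cbx6, one of the chromodomain proteins that read the Polycomb mark, was at 153, 148, 153 and 153 CPM in control and 149, 144, 137 and 137 CPM in stressed brains. The groups overlapped, because control F37 was below stress F34, and the males alone were clearly apart. Cbx6 fell by 6.67% (log2 fold change -0.10, SE 0.03, edgeR adjusted p = 0.0273), and the call was lost without control M30 or M31 or stress M28 or M29, the 4 males (edgeR adjusted p = 0.0817 to 0.106). The other chromodomain genes differed in sign and were not called, Cbx2 at 0.09 (edgeR adjusted p = 0.13), Cbx7 at -0.08 (0.53) and Cbx8 at -0.10 (0.176) on the log2 scale. The ubiquitin ligases Rnf2 and Ring1 and their partner Bmi1 had positive log2 fold changes of 0.08, 0.06 and 0.05, none called (edgeR adjusted p = 0.0934, 0.459 and 0.282), although Rnf2 was called without control F37 (0.0447).

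The BAF complexes held 5 higher members and no lower one. Smarcc1, a scaffold subunit known from progenitor and stem cell complexes, was at 209, 214, 220 and 218 CPM in control and 233, 233, 227 and 235 CPM in stressed brains. The groups were apart by more than the spread of the 3 upper control brains. Smarcc1 rose by 7.75% (log2 fold change 0.11, SE 0.03, edgeR adjusted p = 0.00795). Its paralog Smarcc2, the most highly expressed member, had a log2 fold change of 0.03 (SE 0.03, edgeR adjusted p = 0.574, 95% interval -0.03 to 0.08).

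Smarcd1, another core subunit, was at 191, 194, 187 and 174 CPM in control and 212, 203, 203 and 213 CPM in stressed brains. Control M31 was the lowest brain, and the groups did not overlap. Smarcd1 rose by 11.5% (log2 fold change 0.16, SE 0.03, edgeR adjusted p = 0.00113), although 12.7% of its exon bases are shared with the overlapping genes Gm17349 and Gm34939, between which counts without strand cannot be assigned. The paralog Smarcd3 had a log2 fold change of -0.08 (SE 0.03, edgeR adjusted p = 0.16) and shares 48.2% of its exon bases with Chpf2 and Mir671, so its value is uncertain. Without stress M28 it was called, at -0.12 (edgeR adjusted p = 0.0238).

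Arid1a, the large DNA-binding subunit that defines the canonical BAF complex, was at 311, 299, 310 and 308 CPM in control and 334, 320, 325 and 326 CPM in stressed brains. Stress was higher in every brain, F37 being the lowest control. Arid1a rose by 6.35% (log2 fold change 0.09, SE 0.03, edgeR adjusted p = 0.0249), and the call was lost without sex in the model (edgeR adjusted p = 0.0598) and without control F37 or M30 or stress F34 or M29 (0.0551 to 0.129). Its alternative Arid1b had a log2 fold change of -0.05 (SE 0.03, edgeR adjusted p = 0.286).

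Pbrm1, a bromodomain subunit specific to the PBAF form, was at 185, 191, 185 and 194 CPM in control and 200.4, 205, 195 and 203 CPM in stressed brains. The groups did not overlap, with stress M28 close above control M31. Pbrm1 rose by 6.42% (log2 fold change 0.09, SE 0.03, edgeR adjusted p = 0.0317), and the call was lost without control F36, F37 or M30 or stress F34, F35 or M29 (edgeR adjusted p = 0.0514 to 0.128). The other PBAF subunits Arid2 and Brd7 had log2 fold changes of 0.06 and 0.05 (edgeR adjusted p = 0.146 and 0.33). Arid2 was nonetheless higher in every stressed brain (148 to 150.1 CPM) than in any control brain (141 to 147 CPM).

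Among the remaining BAF members, the ATPases Smarca4 and Smarca2, the motors of the complex, had log2 fold changes of 0.07 and -0.05 (SE 0.03 each, edgeR adjusted p = 0.097 and 0.283), and Smarca4 was called without stress F35 (0.0328). The core subunits Smarcb1, Smarce1 and Bcl7a were at 0.07, 0.07 and 0.04 (edgeR adjusted p = 0.0882, 0.0884 and 0.32). Smarcb1 was higher in every stressed brain (147 to 148 CPM) than in any control brain (138 to 145 CPM), and it was called when sex was left out of the model (edgeR adjusted p = 0.0392).

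Progenitor and neuronal BAF subunits were set against each other next. Of the 6, only the progenitor subunit Actl6a was called. It was at 46.0, 43.2, 46.8 and 39.4 CPM in control and 47.5, 47.1, 51.3 and 49.6 CPM in stressed brains. The groups did not overlap, with control M30 close below stress F35 and control M31 well below the rest. Actl6a rose by 11.6% (log2 fold change 0.16, SE 0.05, edgeR adjusted p = 0.0232), and the call was lost without control F37 or M31 or stress M28 or M29 (edgeR adjusted p = 0.0583 to 0.141). It shares 11.6% of its exon bases with Mrpl47.

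The other progenitor subunits did not follow it past the threshold. Dpf2, which reads histone acylation, was at 108, 100.1, 97.7 and 97.8 CPM in control and 107, 98.9, 105 and 104 CPM in stressed brains, with overlapping groups (log2 fold change 0.04, SE 0.03, edgeR adjusted p = 0.486, 95% interval -0.03 to 0.11). Ss18 was at 68.5, 65.1, 66.8 and 65.8 CPM in control and 66.7, 65.5, 68.2 and 67.0 CPM in stressed brains, also overlapping (log2 fold change 0.01, SE 0.03, edgeR adjusted p = 0.925, 95% interval -0.06 to 0.07). The Actl6a estimate of 0.16 lay above both intervals, but its own 95% interval, 0.067 to 0.249, overlapped both. The difference between the subunits was not tested gene by gene.

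Of the neuronal subunits, Actl6b was at 141, 143, 139 and 136 CPM in control and 136, 135, 146 and 137 CPM in stressed brains (log2 fold change -0.01, SE 0.03, edgeR adjusted p = 0.878, 95% interval -0.07 to 0.05). Dpf1 was at 129, 133, 131 and 128 CPM in control and 128, 124, 128 and 127 CPM in stressed brains (log2 fold change -0.04, SE 0.03, edgeR adjusted p = 0.381, 95% interval -0.10 to 0.01). Both had overlapping groups. Dpf3 was at 14.7, 17.7, 16.0 and 16.8 CPM in control and 20.6, 16.9, 17.2 and 17.1 CPM in stressed brains, and its log2 fold change of 0.14 (SE 0.07, edgeR adjusted p = 0.176) was 0.06 (SE 0.07) without stress F34. None of the 3 neuronal subunits was called, while 6 of the 11 neuronal markers were lower and all 6 proliferation markers higher, with the summed levels given above.

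The ratio of each neuronal subunit to its progenitor counterpart gave 1 value per brain. For Actl6b to Actl6a the log2 ratio was 1.61, 1.73, 1.57 and 1.78 in control and 1.52, 1.52, 1.51 and 1.47 in stressed brains. Every stressed brain was below every control brain, and the stressed brains varied less. The mean went from 1.67 ± 0.10 to 1.504 ± 0.025 (SD, n = 4), a difference of -0.17 (-0.15 in females, -0.19 in males), with a two-sided exact permutation p of 0.0286, the smallest that 4 against 4 brains allow, and 0.0857 after Benjamini-Hochberg adjustment over 3 ratios. Without any single stressed brain the exact permutation p was 0.0571, with a difference of -0.18 to -0.16. With Actl6b at a log2 fold change of -0.01 and Actl6a at 0.16, the difference in the ratio lay mostly on the side of Actl6a. The log2 ratio of Dpf1 to Dpf2 was 0.37 ± 0.08 in control and 0.29 ± 0.03 in stressed brains (difference -0.08, exact permutation p = 0.143, adjusted 0.214). With 1 brain left out the difference was -0.12 to -0.064. It was largest without control F36, the control brain nearest to the stressed ones (exact permutation p = 0.0286, unadjusted and the smallest possible with 1 brain fewer). That of Dpf3 to Dpf2 was -2.63 ± 0.17 and -2.53 ± 0.11 (difference 0.10, exact permutation p = 0.486, adjusted 0.486), positive in females (0.23) and negative in males (-0.03).

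**Figure D3:**
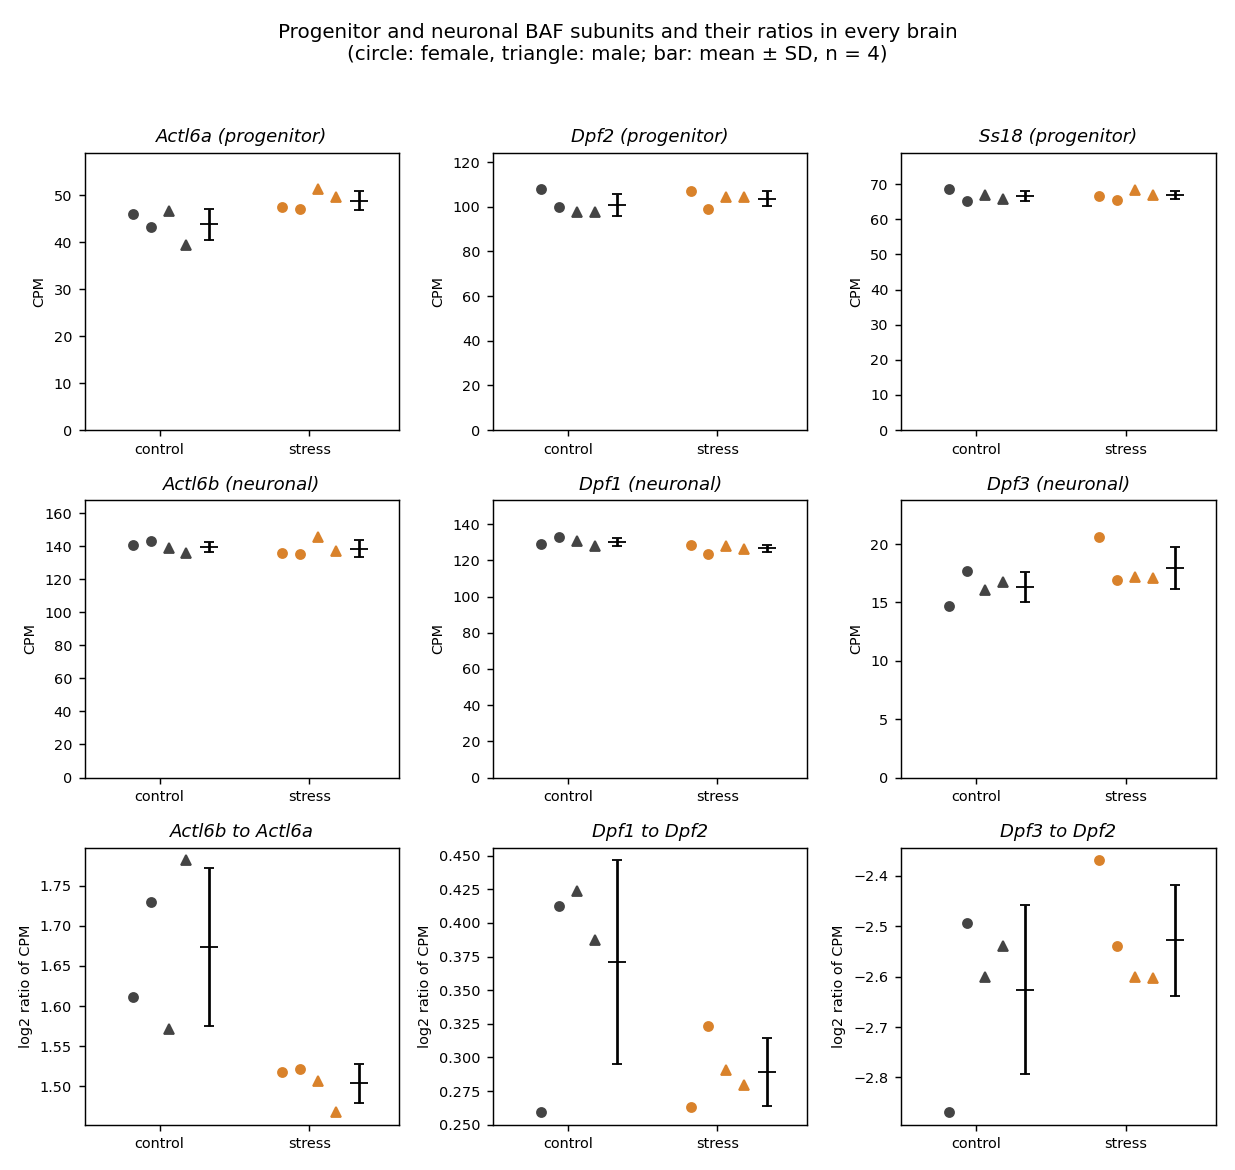
The first 6 panels plot CPM of the progenitor subunits Actl6a, Dpf2 and Ss18 and the neuronal subunits Actl6b, Dpf1 and Dpf3 in every brain, on axes that start at 0; the last 3 plot the log2 ratio of each neuronal subunit to its counterpart, on axes that do not start at 0. Circles are females, triangles males and bars mean ± SD (n = 4); Actl6b to Actl6a is lower in all 4 stressed brains, while the other ratios overlap.

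Among the DNA methylation genes, Dnmt3a, a methyltransferase that places new methyl groups, was the only one called. It was at 226, 226, 235 and 231 CPM in control and 222, 214, 208 and 208 CPM in stressed brains. Again the groups were apart, and the males were further apart than the females. Dnmt3a fell by 7.18% (log2 fold change -0.11, SE 0.03, edgeR adjusted p = 0.0114), in males alone as well (edgeR adjusted p = 0.00324) and not past the threshold in females alone (0.557), and the call was lost without control M30, stress M28 or stress M29 (0.0536 to 0.0648). The sexes' log2 fold changes were -0.05 and -0.16, and the interaction test did not separate them (edgeR adjusted p = 0.764, unadjusted p = 0.0372).

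Dnmt1, which copies methylation after replication, had a log2 fold change of 0.03 (SE 0.03, edgeR adjusted p = 0.489, 95% interval -0.02 to 0.08). The log2 ratio of Dnmt3a to Dnmt1 went from 0.27 ± 0.03 to 0.13 ± 0.07 (SD, n = 4), a difference of -0.14, given without a test because it was chosen after the values were seen. Dnmt3b, the other new-methylation enzyme, was low at 117 to 172 counts per brain and had a log2 fold change of -0.03 with a 95% interval of -0.22 to 0.17, too wide to show a change of the size seen in Dnmt3a. Tet1, Tet2 and Tet3 were at 0.05, 0.05 and 0.07 on the log2 scale (edgeR adjusted p = 0.489, 0.415 and 0.151). Mbd2, which binds methylated DNA, and Mbd3, a subunit of the NuRD repressor complex, were at -0.02 and 0.01 (edgeR adjusted p = 0.808 and 0.944).

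For the 31 members that were not called, log2 fold changes were between -0.10 and 0.18, and for 27 of them the 95% interval lay within 0.2 of 0 on the log2 scale. A change beyond 14.9% was therefore outside the interval for these 27. The median SE was 0.03 for both the called and the uncalled members, and the called changes were 0.09 to 0.16 in size. Of the uncalled members, Phf19 (0.18), Dpf3 (0.14), Cbx8 (-0.10) and Cbx2 (0.09) reached this size, with SEs of 0.09, 0.07, 0.05 and 0.04.

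Within each sex the comparison rested on 2 brains against 2. All 14 called members kept their sign in both sexes, which is not independent of their call over all brains. In females alone edgeR called 3 members higher (6.67%) and 0 lower, against 1.64% and 2.27% of all genes tested in females. In males alone 5 were higher (11.1%) and 2 lower (4.44%), against 3.68% and 4.81% of all genes tested in males. The lower share in males was thus close to the background. An unadjusted p under 0.05 was met by 14 higher and 2 lower members in females, and by 14 and 4 in males. The share of all genes at that threshold within each sex was not counted. The interaction of sex and stress was called for 0 of the 45 members by edgeR and 0 by DESeq2 (0.0056% and 0.0112% of all genes tested), with 3 at an unadjusted p under 0.05 (Cbx6, Dnmt3a and Mbd3, named after their values were seen), against 6.31% of all genes. No member was called between males and females either (0 by edgeR and by DESeq2, against 0.0896% and 0.084% of all genes), 1 had an unadjusted p under 0.05 (Rnf2, named after its values were seen; 5.91% of all genes did), and the largest sex difference among the members was 0.18 on the log2 scale.

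**Figure D4:**
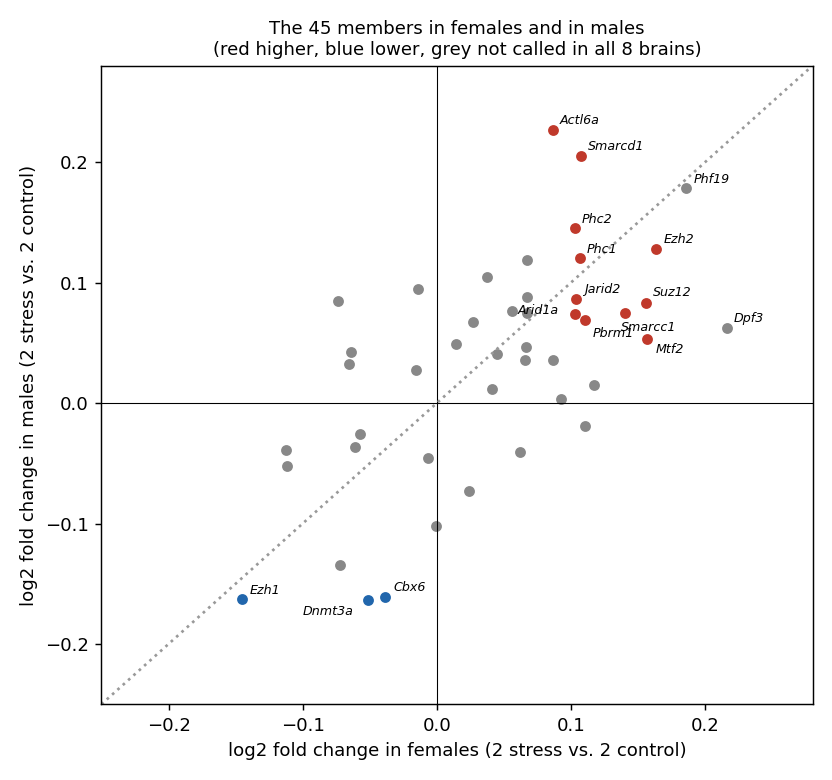
Log2 fold change, stress vs. control, of each of the 45 members in females (x axis) and in males (y axis), each from 2 stressed and 2 control brains; the dotted line marks equal values and the colours give the call over all 8 brains. The 11 higher members (red) are positive and the 3 lower members (blue) negative in both sexes, with Actl6a, Smarcd1, Cbx6 and Dnmt3a further from 0 in males and Mtf2 in females.

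The wider pathway was read from 41 further genes of the same complexes, of which 40 were tested and Dnmt3l, at 0 or 1 count in every brain, was not. Of the tested genes, 0 of 5 in PRC2, 0 of 11 in PRC1 and 0 of 10 in BAF were higher, with 1, 0 and 1 lower. Of 5 erasers of Polycomb marks 1 was higher and 0 lower, and of 9 DNA methylation genes 3 were higher and 1 lower. In all, 4 were higher and 3 lower (10% and 7.5%), against 6.49% and 7.27% of all genes tested. The higher ones were Uhrf1, which brings Dnmt1 to replicated DNA, Hells, a remodeller needed for DNA methylation, Tdg, a glycosylase that removes oxidised methylcytosine, and Asxl1, a partner of the enzyme that removes the PRC1 mark. Uhrf1 was between 44.8 and 48.9 CPM in control and 50.6 and 59.0 CPM in stressed brains (log2 fold change 0.24, edgeR adjusted p = 0.000315), and Hells between 28.2 and 30.1 and between 34.3 and 35.1 CPM (0.25, edgeR adjusted p = 0.00018). Tdg and Asxl1 had log2 fold changes of 0.19 and 0.09 (edgeR adjusted p = 3.66e-05 and 0.0354). Uhrf1, Hells and Tdg had larger log2 fold changes than any called member, and those differences were not tested. The lower ones were the PRC2 accessory gene Phf1 (-0.12, edgeR adjusted p = 0.0326), the BAF gene Bicral (-0.12, edgeR adjusted p = 0.0202) and Mbd5 (-0.12, edgeR adjusted p = 0.0322). Over the 40 tested genes the groups did not overlap for 9 with stress higher and 6 with stress lower, the 7 called ones among them. Of all genes tested, 8.2% and 8.22% had such groups. Asxl1, Phf1, Bicral and Mbd5 kept their call in 1, 2, 4 and 3 of the 8 fits that left out 1 brain, with an edgeR adjusted p of up to 0.125, 0.111, 0.0901 and 0.136, and Uhrf1, Hells and Tdg kept theirs in all 8. By DESeq2 3 of these genes were higher and 1 lower, since Asxl1, Phf1 and Mbd5 lost their call (DESeq2 adjusted p = 0.0579, 0.0854 and 0.077). Phf10 of the progenitor PBAF complex and Ss18l1 of the neuronal BAF complex are further exchanged subunits, but not counterparts of each other. Their log2 fold changes were -0.05 and -0.00 (edgeR adjusted p = 0.346 and 0.944).

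Levels of the members were compared per length, as CPM per kilobase of exon over all 8 brains. The length was that of all annotated exon bases of a gene, which can exceed the transcript in use, so orders and folds depend on it. The members had a median of 15.7, against 4.21 over all genes tested, and 39 of the 45 were above that value. What part their level has in the share that was called was not tested. From Smarcc2 at 98.4 ± 2.27 to Phf19 at 0.990 ± 0.0916 (SD, n = 8) the range was 99.5-fold. Next to Smarcc2 came Smarca4 at 82.1 ± 2.65 and Mbd3 at 61.5 ± 3.39, each of these 3 apart from its neighbour in every brain, while over the whole order 32 of 44 neighbouring pairs overlapped.

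In PRC2 the order was Ezh2 (23.1), Suz12 (21.8) and Mtf2 (20.3), whose neighbours overlapped, and then, each apart from the next, Jarid2 (10.6), Eed (9.08), Ezh1 (5.10) and Phf19 in CPM per kilobase. Ezh2 was 4.53 times as high as Ezh1 per length. In PRC1, Bmi1 (37.6) led, Rnf2 (32.2) and Phc1 (30.2) overlapped, and Cbx7 (1.56) was lowest, with Cbx6 (13.8) the highest of the chromodomain genes. Among the exchanged BAF subunits, Actl6b (32.6) was 2.74 times as high as Actl6a (11.9) per length and Dpf1 (23.9) was 1.52 times as high as Dpf2 (15.7), whereas Dpf3 (4.06) was the lowest of all BAF members and Ss18 (7.08) the next. The ATPase Smarca4 was 6.10 times as high as Smarca2 per length. Of the methyltransferases, Dnmt1 (26.1) was followed by Dnmt3a (13.3) and, far below, Dnmt3b (1.06) per length. In CPM without the length, Dnmt3a was above Dnmt1, with means of 229 against 190 in control and 213 against 194 in stressed brains. Tet3 (8.94) was above Tet2 (3.64) and Tet1 (3.44), which overlapped.

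**Figure D5:**
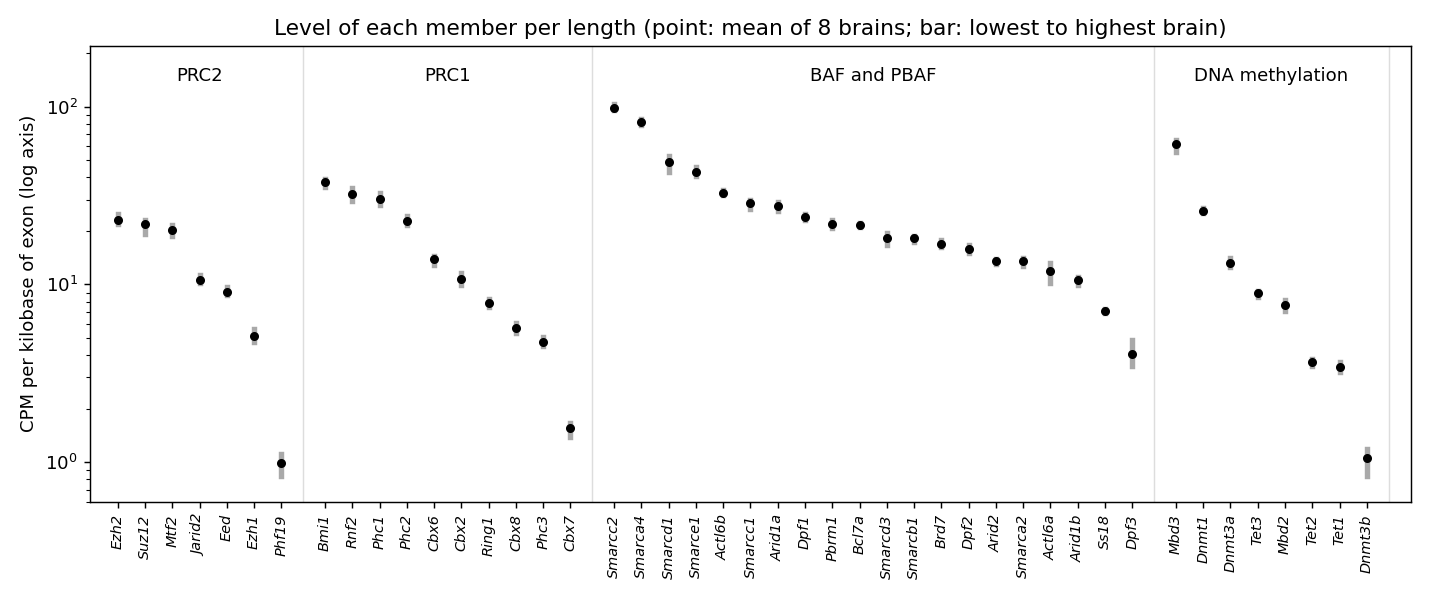
Level of each member in CPM per kilobase of exon (log y axis), by complex and in falling order; points are the mean over 8 brains and bars span the lowest to the highest brain. Smarcc2 (98.4), Smarca4 (82.1) and Mbd3 (61.5) are highest, and Dnmt3b (1.06) and Phf19 (0.990) lowest.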

How the data were processed

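RNA counts of 8 of the study's whole brains, 4 control and 4 stress, were analysed. The authors captured poly(A) RNA, sequenced paired reads, trimmed them with Trim Galore, aligned them with TopHat2 2.1.1 (mm10) and summed pairs over the exons of GENCODE genes with featureCounts 1.6.3, with no option stated for strand or overlapping genes. The authors deposited raw counts per gene, without normalization. Of 54752 gene identifiers, 54723 were matched to a symbol.

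Groups and sex came from the labels. Counts were filtered by edgeR's filterByExpr (minimum count 10), which left 17865 genes, scaled by TMM and analysed by the quasi-likelihood functions glmQLFit and glmQLFTest (edgeR 4.0.16, limma 3.58.1, R 4.3.3), with sex and condition in the model and Benjamini-Hochberg adjustment over all genes tested at 0.05. The SE was the log2 fold change divided by the square root of F, and 95% intervals were 1.96 SE on either side. The common biological coefficient of variation was 3.14%. The study's model also held batch, but its sample list names none for these brains. CPM was the count on a TMM-scaled library total of 1000000. Ratios were differences of log2 CPM (prior count 2) and were compared by a two-sided exact permutation test. Overlapping exons were found from the exon coordinates in the deposited tables. The fits were also run on simulated data in which a known set of genes was changed. Those changes were larger than any of the called members, and no litter effect was simulated. That run therefore cannot say how well changes as small as these are found.

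The members and the lists of partners and markers were chosen with earlier results of these data known. Values in every brain are given for the 6 exchanged BAF subunits and the called members, and of the partners the called ones, Phf10 and Ss18l1 are named. Alternatives were DESeq2 1.42.0, its size factors, upper-quartile normalization, no filter, no sex term, each sex alone, a prior count of 0.5 and each brain left out.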

Additional observations from a re-analysis of the deposited data

Results flagged for a closer look

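In 3 of 96 groups of 4 brains (each of the 45 members, and each ratio, in each treatment), 1 brain lay far from the other 3 by Dixon's criterion, which chance meets in about 1 of 20 groups. Cbx6 was lowest in control F37, at 147.86 CPM, with the other control brains between 152.52 and 153.44 CPM. Bcl7a was lowest in stress F35, at 201 CPM, with the others between 210.1 and 212 CPM. Dpf3 was highest in stress F34, at 20.6 CPM, with the others between 16.9 and 17.2 CPM. Stress F34 also had the highest sum of choroid plexus markers, 31.4 CPM, of which Ttr alone gave 29.9 CPM. The other listed markers, Folr1 and Kl, were highest in control brains (M31 and M30). The log2 fold change of Dpf3 was 0.14 (SE 0.07) over all brains and 0.06 (SE 0.07) without stress F34.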

How the results depend on the processing

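No paired analysis was possible because control and stressed brains carry different animal numbers and share none. Under the other normalizations, DESeq2, no filter and no sex term, 10 or 11 members were higher and 3 lower, and the 14 called members kept their call in 67 of 70 fits, the exceptions being Jarid2 (DESeq2, no filter) and Arid1a (no sex term). Scaling moved the median log2 fold change of all genes by less than 0.1. Over all genes, 1160 were higher and 1298 lower, against 748 higher by DESeq2, 295 higher and 407 lower in females alone and 664 higher in males alone. Among the members, 3 were higher and 0 lower in females alone and 5 were higher in males alone, where each arm held 2 brains, so that fewer samples entered each fit.

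Without 1 brain, 736 to 1057 of all genes were higher and 854 to 1308 lower, both fewest without stress M29. Of the members 5 to 10 were higher (5 without stress M29, 6 without control M30, 7 without control F36, control F37 or stress F34) and 1 to 3 lower (1 without control M30, control M31 or stress M29). Called members kept their direction in all of these fits and their call in 74 of 112, and Ezh2, Phc2, Smarcc1 and Smarcd1 kept theirs in each. The log2 ratio of Actl6b to Actl6a differed by -0.20 to -0.13, that of Dpf1 to Dpf2 by -0.12 to -0.064 and that of Dpf3 to Dpf2 by 0.017 to 0.14, with -0.031 for the last in males alone.

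Members that changed direction were all uncalled. Within 1 sex these were Eed (0.032), Phc3 (-0.040), Actl6b (0.042) and Tet1 (-0.019) in males and Dpf2 (-0.014), Ss18 (-0.015), Mbd2 (0.024) and Mbd3 (-0.074) in females. With 1 brain left out the log2 fold change was -0.038 to 0.014 for Eed, -0.015 to 0.044 for Phc3, -0.0037 to 0.024 for Ss18, -0.039 to 0.0057 for Actl6b, -0.12 to 0.083 for Dnmt3b, -0.057 to 0.019 for Mbd2 and -0.048 to 0.043 for Mbd3. The cause of these changes was not tested. Depth limits Phf19 and Dnmt3b most, with 119 to 151 and 117 to 172 counts per brain.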
